A study of Homo sapiens with 17 samples.

Results

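The 3 hairpins of the family of miR-148 and miR-152, named MIR148A, MIR148B and MIR152, were followed in small RNA of K562, a human erythroleukemia cell line. Members were all alignments of 18 to 26 nt that lay on the hairpin's own strand inside 3 windows of the human build hg19: chr7:25989539-25989606 on the minus strand, chr12:54731000-54731098 on the plus strand and chr17:46114527-46114613 on the minus strand. Over 8 tables these were 139 distinct alignments, of which 59 were in MIR148A, 56 in MIR148B and 24 in MIR152. A single table held 70 to 89 of them, out of 360562 to 1434106 alignments of the same lengths.

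A microRNA is cut out of a folded transcript in 2 steps. Drosha, with its partner DGCR8, trims the base of the hairpin in the nucleus, and Dicer removes the loop in the cytoplasm, which leaves a short duplex of a 5p and a 3p strand. One strand is kept by an Argonaute protein and pairs with messenger RNAs mainly through its seed, bases 2 to 8. In this family the 3p strand is usually the kept one. MIR148A stands in a stretch of its own, while MIR148B and MIR152 are carried in introns of genes for coatomer zeta subunits, and targets reported for the family include the DNA methyltransferase DNMT1.

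All libraries came from K562 cells with the genotype label Drosha_shRNA_KD, which stands for an shRNA that lowers Drosha once doxycycline (Dox) is added. Cells were held with 1 µg/mL Dox, or in parallel with water, for 3, 13 or 31 d, and the labels call the replicates biologically independent. The series has 17 libraries, 8 with Dox, 8 with water and 1 untreated, the last of which is not analysed here. The labels name 1 table for each Dox library together with the water library that has its day and replicate number, which made 2 pairs for the 3 d time, 3 for 13 d and 3 for 31 d. Each table holds the reads of both libraries, and their ratio as the authors computed it. Neither the labels nor the tables, which have no header, say which library is the numerator. Every value below is the numerator library set against the denominator library and says nothing of Dox against water. It is assumed, and could not be checked, that the 8 tables share 1 orientation. Messenger RNA was not measured, so neither the knockdown of Drosha nor the identity of the cell line was checked here.

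The mature 3p sequences were taken from RefSeq (GRCh38.p14), where all 3 hairpins were matched by symbol. They are shown because the seed, in capitals, is the same in all 3, which makes them 1 family.

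miR-148a-3p: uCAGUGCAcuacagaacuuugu
miR-148b-3p: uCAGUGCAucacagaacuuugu
miR-152-3p: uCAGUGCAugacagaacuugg

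Counted from 1 at the 5′ end, miR-148a-3p and miR-148b-3p differ at C9U and U10C, written with the base of the first named before the position. From miR-148a-3p to miR-152-3p the differences are C9U, U10G and U20G, and from miR-148b-3p to miR-152-3p they are C10G and U20G. The mismatch setting of the aligner is not stated, and reads of 1 member placed on another were not looked for.

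The 5p arms are shown as the alignment with most reads, read from the RefSeq hairpin by its offset, for MIR148A and MIR148B, and as the RefSeq mature sequence for MIR152, where both coincide. Capitals again mark bases 2 to 8.

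MIR148A-5p: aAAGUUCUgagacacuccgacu
MIR148B-5p: gAAGUUCUguuauacacucaggc
MIR152-5p: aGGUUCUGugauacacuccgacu

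RefSeq gives miR-148b-5p with its 5′ end 1 base further downstream, as aAGUUCUGuuauacacucaggc. In these libraries 97.4% of the MIR148B-5p reads (19997 of 20522 over 16 library columns) began at base 24 of the hairpin, and 1.53% (314 reads) at base 25, where RefSeq places the end. The shift changes the seed to AAGUUCU, which is also the seed of the leading MIR148A-5p alignment. The share that began at base 24 was 94.1% to 98.9% in single numerator libraries and 94.7% to 98.6% in single denominator libraries.

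The whole hairpins, with the RefSeq mature spans in capitals, show how the arms face each other.

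MIR148A: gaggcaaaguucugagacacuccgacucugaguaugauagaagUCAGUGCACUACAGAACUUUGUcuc
MIR148B: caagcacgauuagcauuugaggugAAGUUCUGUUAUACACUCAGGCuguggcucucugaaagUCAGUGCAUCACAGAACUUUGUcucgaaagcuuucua
MIR152: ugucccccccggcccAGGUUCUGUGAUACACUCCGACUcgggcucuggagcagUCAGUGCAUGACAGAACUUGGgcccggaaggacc

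The leading 5p and 3p 5′ ends lay 38 nt apart in MIR148A, 39 nt in MIR148B and 38 nt in MIR152, with 16, 16 and 15 nt between the arms. Folded with RNAfold, the 3 hairpins had minimum free energies of -27.9, -31.2 and -47.2 kcal/mol, MIR152 being the richest in G and C, at 63.2% of its bases against 43.4% in MIR148B and 45.6% in MIR148A. In the GENCODE v29 annotation of GRCh38, MIR148B lies in an intron of COPZ1 and MIR152 in an intron of COPZ2, each on the strand of its host. MIR148B also overlaps AC078778.2, annotated as sense overlapping. MIR148A overlaps no other annotated gene, and the nearest is the lincRNA AC010719.1, 516 nt away.

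The 5′ ends of the 3p strands were precise. The leading 5′ end held 99.9% of the reads of MIR148A-3p, of MIR148B-3p and of MIR152-3p over all libraries, and at least 99.7% of them in every single library. The 5p ends were looser, with 94.2% of MIR148A-5p reads at base 6 and 5.70% at base 5. Of MIR152-5p, 341 of 410 reads began at base 16 and 69 at base 15, and of those 69 only 1 was a numerator read. An alignment is listed only where the denominator library has at least 1 read, so a form seen in the numerator alone is not in a table. Reads outside both arms reached at most 16 in any library, so nearly every read of the windows belonged to a strand of the duplex.

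**Figure D1:**
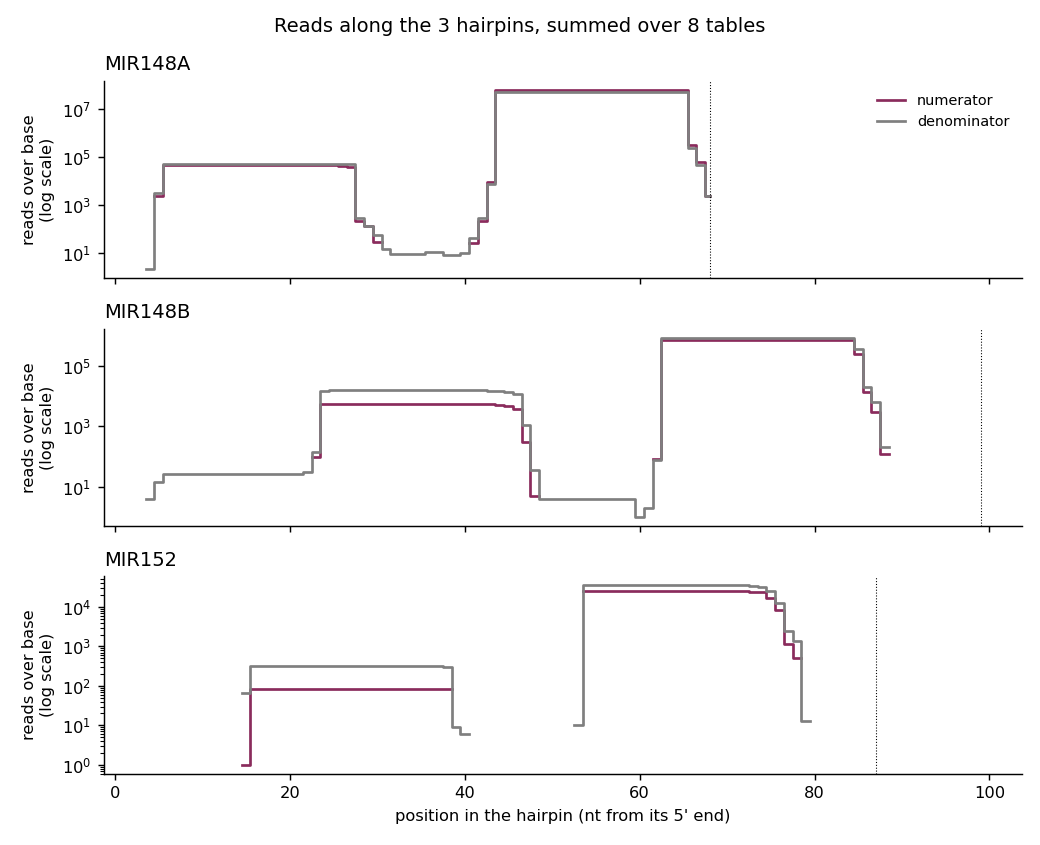
Reads of 18 to 26 nt over each base of the 3 hairpins (log scale), summed over 8 tables, with numerator libraries in purple and denominator libraries in grey, against the position in the hairpin, whose end is dotted. Each hairpin shows a low 5p block and a high 3p block with sharp 5′ edges. In reads that were not scaled, every block but the 3p block of MIR148A is lower in the numerator.

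The family's 3p strands differed in reads by orders of magnitude. MIR148A-3p was the most abundant of all 10245 5′ ends tested, with 116893154 reads at its leading end. It made up 35.9% and 6.70% of the listed 18 to 26 nt reads in the 3 d numerator libraries, against 13.7% and 2.63% in their denominator libraries. At 13 d it took 43.5%, 14.5% and 14.7% of the numerator reads and 35.5%, 23.7% and 17.5% of the denominator reads. At 31 d it took 30.4%, 31.8% and 34.4% of the numerator reads and 25.1%, 35.2% and 27.8% of the denominator reads. The libraries of 1 day overlapped between numerator and denominator at each time. The 2 denominator libraries at 3 d had the lowest shares among the 8 denominators, and the 3 d replicate 3 numerator the lowest among the numerators.

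MIR148B-3p ranked 27 and MIR152-3p 280 by reads among the same 5′ ends. Of all 3p reads of the family, MIR148A gave 86.8% to 99.5% in a library, MIR148B 0.519% to 12.9% and MIR152 0.0124% to 0.486%, so the order MIR148A, MIR148B, MIR152 was the same in all 16 libraries. The lengths of these strands are nearly equal, but whether reads per molecule are equal between sequences was not tested. The 5p strand was 0.0301% to 0.416% of the reads of both arms in MIR148A, 0.369% to 6.01% in MIR148B and 0% to 1.97% in MIR152. The 3p strand of each hairpin had more reads than the 5p strand in all 16 libraries.

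**Figure D2:**
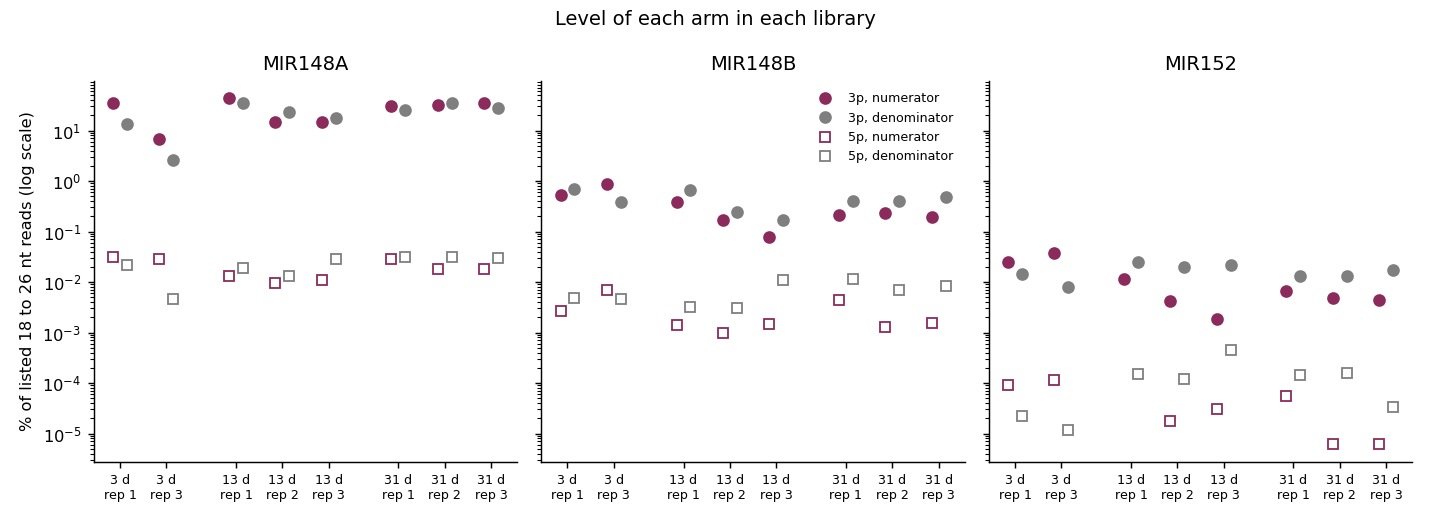
Share of the listed 18 to 26 nt reads (%, log scale) of each arm in each library, with filled circles for 3p, open squares for 5p, purple for numerator and grey for denominator libraries, in order of day and replicate. MIR148A-3p lies between 2.63% and 43.5%, above every other arm, and the 0 reads of MIR152-5p in the 13 d replicate 1 numerator are not drawn.

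For each library of a pair, the reads of an alignment were divided by its length and summed over all alignments of an arm. The ratio of an arm is the quotient of these sums, given on the log2 scale after the authors' scaling. That scaling matters here. The median of all 10245 5′ ends was 0.44 and 0.90 in the 3 d tables. It was 0.29, -0.99 and -1.53 in the 13 d tables and -0.25, -1.15 and -1.02 in the 31 d tables. A whole table could thus lie above or below 0. These ends needed a denominator read in every table but no numerator read, which can tilt medians, background calls and places. Among 7326 ends with no count of 0, limma's median log2 ratio was 1.12, -0.24 and -0.58 at 3, 13 and 31 d. Among all 10245, edgeR's was 0.74, -0.69 and -0.77. The test across all 5′ ends was edgeR's quasi-likelihood test with Benjamini-Hochberg adjustment, in which an arm stands for its leading 5′ end. It put 1283 ends higher and 129 lower at 3 d, 811 higher and 2151 lower at 13 d, and 230 higher and 1720 lower at 31 d. With each table centred on its median 917 were higher and 781 lower at 3 d, 1477 higher and 1506 lower at 13 d, and 584 higher and 1012 lower at 31 d. Centred values stand beside the calls at single days below.

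MIR148A-3p was higher in the numerator at 3 d and close to equal later. Its log2 ratio was 2.62 and 2.65 in the 3 d tables, 0.04, -0.95 and -0.28 in the 13 d tables and -0.11, -0.69 and 0.46 in the 31 d tables. The 2 tables at 3 d lay above the other 6, which scattered around 0. The fitted value was 2.64 ± 0.44 (SE, n = 2 pairs) at 3 d (edgeR adjusted p = 0.0038) and 1.97 after centring (edgeR adjusted p = 0.0159). DESeq2 with its own size factors gave 1.53 and did not call it (DESeq2 adjusted p = 0.0594). At 13 d it was -0.40 ± 0.34 (n = 3) and at 31 d -0.11 ± 0.34 (n = 3), neither past the threshold (edgeR adjusted p = 0.43 and 0.854). Centring turned these 2 values to 0.34 and 0.69, again not past the threshold, so no direction is given for MIR148A-3p after 3 d.

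MIR148A-5p, the rarer strand of that duplex, had log2 ratios of 1.73 and 3.93 in the 3 d tables, -0.75, -0.73 and -1.45 in the 13 d tables and -0.50, -1.33 and -0.53 in the 31 d tables. It was above 0 in both early tables and below 0 in all 6 later ones. Its sums rested on 390 to 13635 reads per library. The rise at 3 d was 2.77 ± 0.73 (SE, n = 2; edgeR adjusted p = 0.0235), and 2.10 after centring (adjusted p = 0.0489). The later values, -0.94 ± 0.54 at 13 d and -0.76 ± 0.54 at 31 d (n = 3 each), did not pass (edgeR adjusted p = 0.217 and 0.359), and centring gave -0.20 and 0.047. The early call ended without 3 d replicate 3, at 1.66. It also ended with no replicate block (2.41, edgeR adjusted p = 0.0771), with a replicate block across days (2.69, adjusted p = 0.0803) and with each day fitted alone (2.77, adjusted p = 0.174).

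The ratio of MIR148B-3p was lower than that of MIR148A-3p in most tables. It had 183535 and 178173 numerator reads at 3 d against 64406 and 33437 denominator reads, which gave log2 ratios of 0.81 and 2.44. At 13 d the log2 ratios were -1.04, -0.76 and -1.16, and at 31 d -1.31, -1.34 and -1.12. Within each later day the 3 tables were within 0.5 of each other, a narrower spread than the other arms of the family had at those days, and all 6 were below 0. The fitted value was 1.62 ± 0.54 at 3 d (n = 2; edgeR adjusted p = 0.0591), -0.99 ± 0.42 at 13 d (n = 3; adjusted p = 0.0911) and -1.27 ± 0.42 at 31 d (n = 3; adjusted p = 0.0492). The call at 31 d ended with centring, which gave -0.46 (edgeR adjusted p = 0.527). It also ended when any of 5 single tables of 13 d or 31 d was left out, with values of -1.34 to -1.22 over all such omissions. Centring gave 0.95 at 3 d and -0.24 at 13 d (edgeR adjusted p = 0.262 and 0.738). In the 13 d tables MIR148B-3p stood above 30.1%, 53.5% and 55.7% of all 5′ ends, so its fall there depends on the scaling.

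MIR148B-5p fell at both later times. Its log2 ratios were 0.41 and 1.86 in the 3 d tables, -1.41, -1.87 and -2.89 in the 13 d tables and -1.77, -2.92 and -2.33 in the 31 d tables. The later tables did not overlap with the early ones and held 170 to 961 numerator reads against 764 to 3385 denominator reads. The fit gave -2.09 ± 0.62 at 13 d and -2.38 ± 0.62 at 31 d (SE, n = 3 each; edgeR adjusted p = 0.0222 and 0.0173), and 1.15 ± 0.75 at 3 d (n = 2; adjusted p = 0.303). After centring the later values were -1.35 and -1.57 and lost the call (adjusted p = 0.0853 and 0.0735), whereas edgeR's TMM factors gave -1.70 and -1.73 and kept it. Leaving out 13 d replicate 2 or 3 ended the call at 13 d, with -2.18 and -1.67, and leaving out 31 d replicate 2 or 3 ended that at 31 d, with -2.08 and -2.39, as did the fit with no replicate block (-2.20, edgeR adjusted p = 0.0767).

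MIR152-3p had the largest fitted log2 ratio, in size, of the 3p strands at each time, an order that was not itself tested. Its numerator reads were 8575 and 7678 at 3 d against 1292 and 669 denominator reads, which gave log2 ratios of 2.00 and 3.55. At 13 d it had 2106, 736 and 605 numerator reads against 5929, 5056 and 6632 denominator reads, with log2 ratios of -1.38, -2.46 and -3.60. At 31 d it had 1456, 1559 and 2184 numerator reads against 3812, 5585 and 6282 denominator reads, with log2 ratios of -1.32, -1.97 and -1.79. The early and later tables stood on opposite sides of 0. The fit gave 2.78 ± 0.74 at 3 d (SE, n = 2; edgeR adjusted p = 0.0243), -2.48 ± 0.60 at 13 d (n = 3; adjusted p = 0.00869) and -1.72 ± 0.57 at 31 d (n = 3; adjusted p = 0.0492). Centred, the rise at 3 d and the fall at 13 d held, at 2.11 (adjusted p = 0.0369) and -1.74 (adjusted p = 0.0211), while the value at 31 d, -0.91, did not pass (adjusted p = 0.233). Leaving out 13 d replicate 2 or 3 ended the call at 13 d, with -2.50 and -1.92, and leaving out either 3 d table ended the one at 3 d, with 3.54 and 2.03. At 31 d the call ended without 13 d replicate 2 or without any one of the 31 d tables, with -1.91 to -1.58 over all omissions.

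MIR152-5p was the rarest arm, and its ratios rest on few reads. It had 31 and 24 numerator reads against 2 and 1 denominator reads at 3 d, 0, 3 and 10 against 37, 31 and 133 at 13 d, and 12, 2 and 3 against 41, 68 and 12 at 31 d. Ratios in this paragraph are of plain read counts, not divided by length, after the authors' scaling. The ratio at 3 d was 9.52 (exact 95% interval 2.42 to 82.1) and 24.3 (3.97 to 1000.4). At 31 d it was 0.302 (0.144 to 0.585), 0.0262 (0.00311 to 0.0983) and 0.205 (0.0372 to 0.761). At 13 d replicate 1 the ratio was 0, with an upper bound of 0.113 from the same exact interval and of 0.0878 if 3 counts are taken as the limit of a count of 0, and the others were 0.121 (0.0237 to 0.388) and 0.0672 (0.0315 to 0.127). The early intervals lay above 1 and the later ones below it, for counting error only. The fitted log2 ratio passed at 13 d alone (-3.71 ± 0.97, n = 3, edgeR adjusted p = 0.0122), and depends on how the fit treats the count of 0. Centring kept that call, at -2.72 (edgeR adjusted p = 0.0366). The call ended without 13 d replicate 2 or 3, at -4.21 and -3.82.

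At 3 d 3 of the 6 arms were called higher (edgeR adjusted p under 0.05), MIR148A-5p, MIR148A-3p and MIR152-3p, against 12.5% of all 5′ ends tested. At 13 d 3 were called lower, MIR148B-5p and both arms of MIR152, against 21.0% of all. At 31 d 3 were called lower, both arms of MIR148B and MIR152-3p, against 16.8% of all. Called or not, the median fitted log2 ratio of all ends was 0.74, -0.69 and -0.77 at these times. After centring the 3 calls at 3 d held, at 13 d the 2 arms of MIR152 were left, and at 31 d none was. All these shares are of ends that had denominator reads in every table, whether or not they had numerator reads. The place of an arm among all 5′ ends of its table does not depend on the scaling, but it does depend on that selection. In single tables MIR152-3p stood above 78.9% and 88.4% of ends at 3 d, and above 19.2% to 37.2% in the 6 later tables. Under the authors' scaling the fitted ratio of MIR148A-3p stood above 83.2%, 55.3% and 65.8% of the 10245 5′ ends at 3, 13 and 31 d. For MIR148B-3p these were 68.3%, 44.3% and 38.3%, and for MIR152-3p 84.4%, 21.9% and 29.6%.

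**Figure D3:**
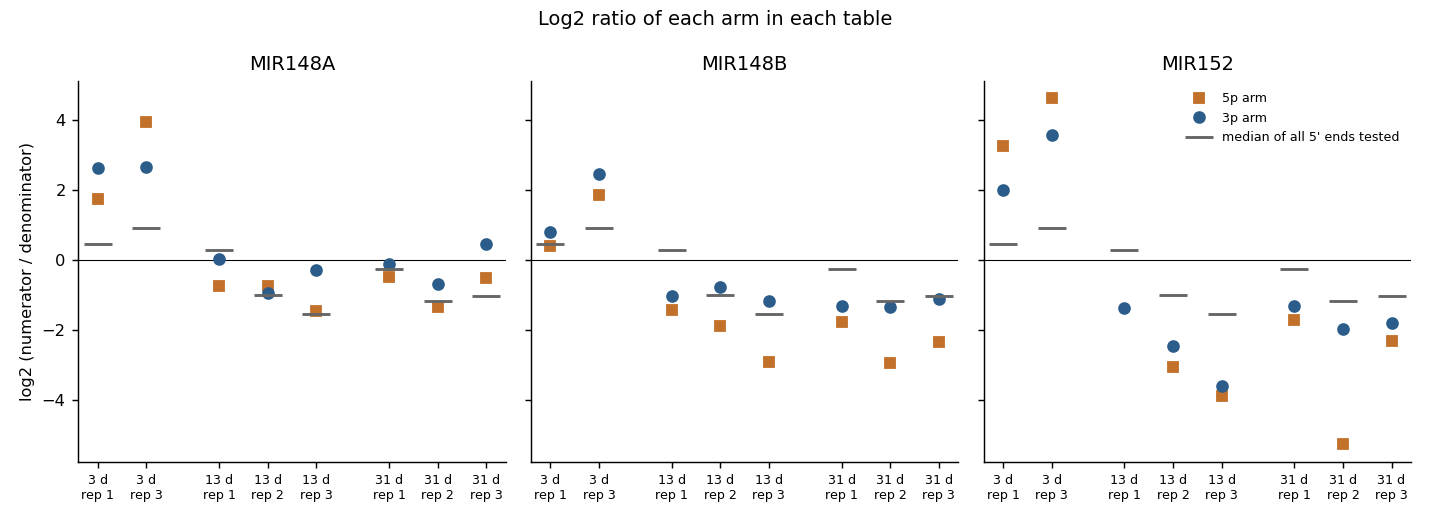
Log2 of numerator over denominator for the 5p arm (orange squares) and the 3p arm (blue circles) of each hairpin in each of 8 tables, with the median of all 10245 5′ ends as a grey bar. All points at 3 d lie above 0, the later MIR148B and MIR152 points lie below it, and MIR148A-3p at 13 d and 31 d scatters between -0.95 and 0.46.

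**Figure D4:**
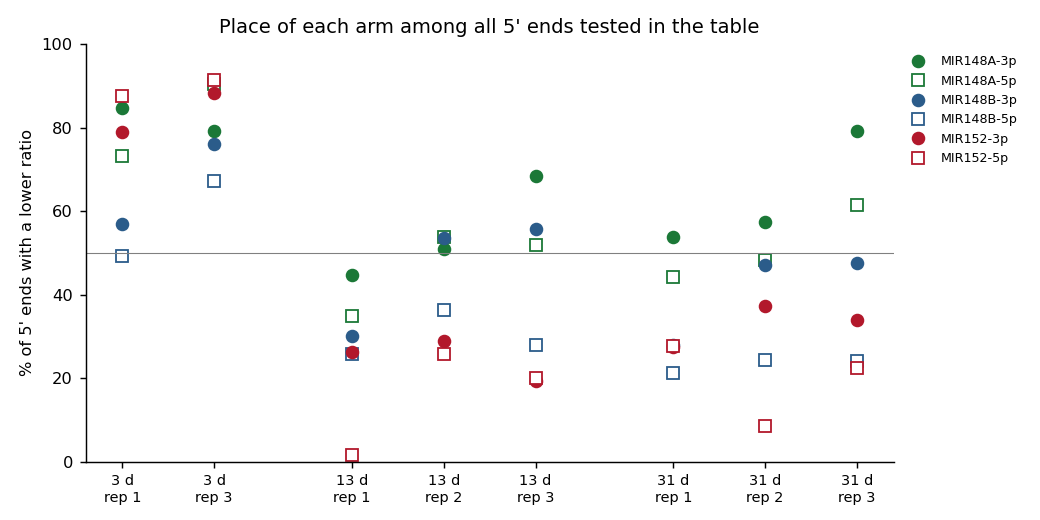
Percentage of the 10245 5′ ends of a table with a lower ratio than the leading 5′ end of each arm (filled circles 3p, open squares 5p; green MIR148A, blue MIR148B, red MIR152). MIR152-3p stands at 78.9% and 88.4% in the 3 d tables and between 19.2% and 37.2% in the later ones.

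Differences between arms within 1 table are free of the scaling between its libraries. Of 6 such differences, 3 passed the exact two-sided sign-flip permutation test over 8 tables, each with an adjusted p of 0.0469 over the 6. The test takes the 8 tables as independent and of 1 orientation. Whether tables of different days with the same replicate number are independent could not be decided. MIR148B-5p was below MIR148B-3p in 8 of 8 tables, by -0.93 ± 0.55 on the log2 scale (mean ± SD, n = 8). The difference was -0.40 and -0.58 in the 3 d tables, -0.38, -1.11 and -1.73 in the 13 d tables and -0.46, -1.58 and -1.21 in the 31 d tables. MIR148B-3p was below MIR148A-3p in 7 of 8 tables, by -0.90 ± 0.67, with 13 d replicate 2 the exception at 0.19. MIR152-3p was below MIR148A-3p in 7 of 8 tables, by -1.34 ± 1.21, with 3 d replicate 3 the exception at 0.90.

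The difference between MIR152-3p and MIR148A-3p was -0.62 and 0.90 in the 3 d tables, -1.42, -1.51 and -3.32 in the 13 d tables and -1.22, -1.28 and -2.25 in the 31 d tables. It was thus below -1.2 in each of the 6 later tables and had either sign at 3 d. MIR152-3p against MIR148B-3p was 1.20 and 1.11 at 3 d and below 0 in all 6 later tables, from -2.43 to -0.01. Over all 8 tables that difference averaged -0.43 ± 1.25 and did not pass (exact sign-flip adjusted p = 0.422). MIR148A-5p against MIR148A-3p averaged -0.42 ± 0.81, below 0 in 6 of 8 tables (exact sign-flip adjusted p = 0.27). MIR152-5p against MIR152-3p had values in 7 tables and averaged -0.39 ± 1.48 (exact sign-flip adjusted p = 0.609), at 1.25 and 1.05 at 3 d and below 0 in all 5 later tables with a value. Whether these differences themselves changed with time was not tested. With 1 table left out, 7 tables allow an exact p of 0.0156 at best. Whether a difference then passes depends on how many of the 6 reach that p together. Calls were kept under some omissions and ended under others, where the exact sign-flip adjusted p reached 0.0938. The means over 7 tables ran from -1.01 to -0.82, from -1.06 to -0.77 and from -1.66 to -1.06 for the 3 calls in the order given.

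The change between days was tested in the same edgeR fit, and rests on the unchecked assumption that the 8 tables share 1 orientation. All 6 arms were called lower at 13 d than at 3 d (edgeR adjusted p under 0.05), as were 24.3% of all 5′ ends tested. Called or not, the median change of all ends was -0.91. The difference in log2 ratio was -5.26 ± 0.96 for MIR152-3p (SE; edgeR adjusted p = 0.00259), -3.03 ± 0.55 for MIR148A-3p (adjusted p = 0.00257) and -2.61 ± 0.68 for MIR148B-3p (adjusted p = 0.0125). The 5p arms gave -3.71 in MIR148A, -3.25 in MIR148B and -7.53 in MIR152. Among all 5′ ends, 31.2% had a lower difference than MIR148A-3p, 34.3% than MIR148B-3p and 12.4% than MIR152-3p. At 31 d against 3 d all 6 were called lower too, as were 25.8% of all ends. The median change of all ends was -1.66. The 3p values were -4.50 ± 0.93 for MIR152-3p, -2.75 ± 0.55 for MIR148A-3p and -2.89 ± 0.68 for MIR148B-3p (edgeR adjusted p = 0.00614, 0.0056 and 0.00925). Here 37.0% of all ends had a lower difference than MIR148A-3p, 35.4% than MIR148B-3p and 16.7% than MIR152-3p. Both comparisons share the 3 d tables. Centred on the table medians, 109 ends higher and 2486 lower became 707 and 1350 for 13 d against 3 d, and 127 and 2647 became 833 and 1097 for 31 d against 3 d.

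After that centring the 2 arms of MIR152 kept their calls in both comparisons. MIR152-3p was -3.85 at 13 d against 3 d and -3.02 at 31 d against 3 d (edgeR adjusted p = 0.00939 and 0.0262). MIR148A-3p was -1.63 and -1.27 (adjusted p = 0.064 and 0.128) and MIR148B-3p -1.19 and -1.41 (adjusted p = 0.246 and 0.167), so these did not pass. DESeq2 gave MIR148A-3p -1.50 and -0.91 and MIR148B-3p -1.07 and -1.04, none past the threshold. The 2 calls of MIR152-3p held under every alternative run, none of which changed the orientation of a table. Without 3 d replicate 3, MIR148B-3p lost both calls, at -1.80 and -2.07, and so did MIR148A-5p (-2.61 and -2.42) and MIR148B-5p (-2.50 and -2.78), while MIR152-5p lost that of 31 d against 3 d (-6.06). MIR148B-5p also lost the first without 13 d replicate 2 or 3 (-3.33 and -2.82) and the second without 31 d replicate 2 or 3 (-3.23 and -3.54). Between 31 d and 13 d the 6 arms differed by -0.29 to 0.89, none past the threshold, and edgeR called 0% of all 5′ ends, that is 0 of 10245, with 834 at an unadjusted p under 0.05. DESeq2 called 203. At 3 d there were 2 tables, and the low MIR148A-3p share of both 3 d denominator libraries goes with the high ratio there. The numerator share of 3 d replicate 3, 6.70%, was also the lowest among numerators, and the log2 ratio was 2.65 there against 2.62 in replicate 1. The part of these shares in the change between days was not tested. In cultures as a whole, fewer cells that make an RNA and less of it per cell cannot be told apart.

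The 3p strands also differed in length. MIR148A-3p was almost wholly 22 nt long, with 99.3% of numerator and 99.4% of denominator reads at that length. Its window ends 3 nt after the leading alignment, so forms over 25 nt with that 5′ end fell outside it. MIR148B-3p was a mixture of 22 nt (63.9% of numerator and 56.0% of denominator reads) and 23 nt (32.3% and 39.1%). MIR152-3p was spread over 21 nt (26.5% and 21.7%), 22 nt (34.8% and 36.3%) and 23 nt (28.5% and 28.7%). Its most frequent alignment was 1 base longer than the RefSeq sequence. Shares summed over all days hide differences within tables. At 31 d the 21 nt forms were 43.5%, 57.2% and 44.4% of numerator reads, against 26.5%, 27.2% and 28.9% of denominator reads. The 23 nt forms were 15.3%, 7.12% and 15.6% against 26.3%, 22.8% and 21.7%. In 3 d replicate 1 both went the other way, as did 23 nt in 13 d replicates 1 and 2. These shares were not tested. Since the 5′ ends were fixed, the length forms of the 3p strands share 1 seed.

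The 2 main forms of MIR148B-3p did not move alike. The 23 nt form had a lower log2 ratio than the 22 nt form in 8 of 8 tables, by -0.23 and -0.34 in the 3 d tables, -0.90, -0.47 and -0.97 in the 13 d tables and -0.51, -1.22 and -0.85 in the 31 d tables. The 23 nt share was 41.6% and 34.3% in the 3 d numerator libraries, against 46.0% and 39.9% in their denominators. In the later tables it was 22.3% to 34.6% in numerator libraries and 33.9% to 42.2% in denominator libraries. This comparison was chosen after its values were seen and has no test. Tables also differed in how length moved with the ratio at other sites. Among 912 to 1308 other 5′ ends per table with at least 20 reads of each length, the median of the same difference was 0.19 and 0.01 in the 3 d tables, -0.13, 0.03 and -0.32 in the 13 d tables and -0.12, -0.63 and -0.05 in the 31 d tables. MIR148B-3p lay below that median in 8 of 8 tables, by -0.80 to -0.34. It was within the quartiles of the other ends in 5 of 8 tables and below the lower quartile in 3. MIR148A-3p lay below it in 3 of 8 and MIR152-3p in 4 of 8. Unequal forms were not particular to MIR148B-3p. At 31 d the 21 nt and 23 nt forms of MIR152-3p had log2 ratios of -0.63 and -2.13, -0.94 and -3.69, and -1.19 and -2.29. The 23 nt form was also the lower one at 13 d and in 3 d replicate 3, but not in 3 d replicate 1 (0.81 and 2.47). That difference was not tested.

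**Figure D5:**
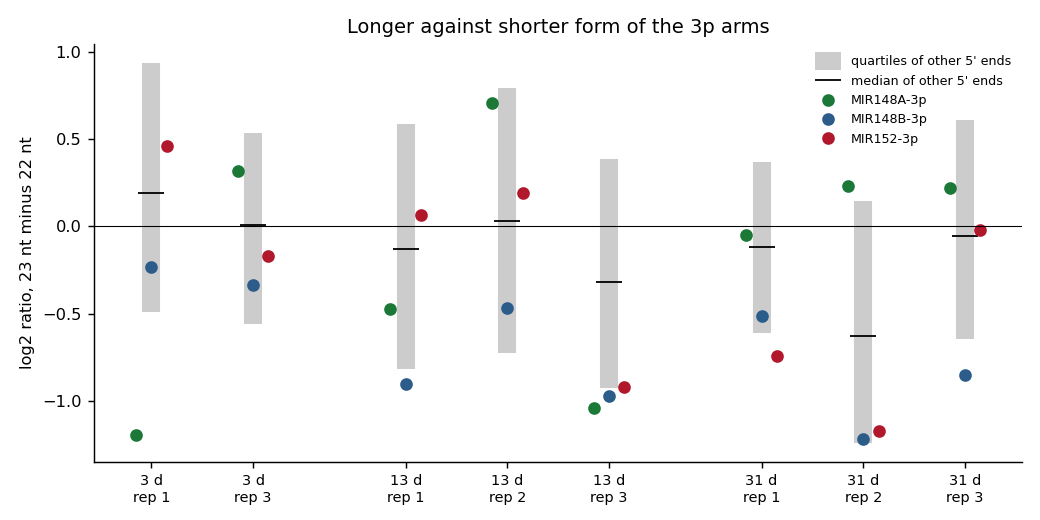
Log2 ratio of the 23 nt minus that of the 22 nt alignments, for the 3p arms of MIR148A (green), MIR148B (blue) and MIR152 (red) in each table, with the median (black bar) and quartiles (grey) of 912 to 1308 other 5′ ends. The MIR148B-3p points lie between -1.22 and -0.23, below the black bar in 8 of 8 tables.

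Other 5′ ends with the most similar pattern were sought by the root mean square difference of centred log2 ratios over 8 tables, among 3076 ends outside the windows with at least 1600 reads. They are given by hg19 position alone. For MIR148A-3p the nearest began at base 209840373 of chromosome 1 on the minus strand, 229791355 of chromosome 1 on the plus strand and 112430593 of chromosome 6 on the plus strand, at distances of 0.213 to 0.222. For MIR148B-3p they began at 112528953 of chromosome 1 and 46522219 of chromosome 19, both on the plus strand, and at 1617229 of chromosome 17 on the minus strand, at distances of 0.367 to 0.404. For MIR152-3p they began at 41220085 of chromosome 1 on the plus strand, 72086728 of chromosome 6 on the minus strand and 131739656 of chromosome 3 on the minus strand, at distances of 0.389 to 0.459. None of the 9 ends was shared between the 3 members, but lists of 3 out of 3076 ends are too short to compare members. The ends nearest to MIR148A-3p had 18827 to 27702 reads over all libraries.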

How the data were processed

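Small RNA of K562 cells was sequenced after gel selection of 20 to 40 nt, per the labels' protocols, and aligned with Bowtie2 2.2.9 to hg19, per the submitters' processing notes. Each deposited table lists alignments with the read counts of 2 libraries and the ratio the authors computed, which is the quotient of the counts times 1 constant per table. The 16 columns of scaled values were not used. Listed 18 to 26 nt reads numbered 17187780 to 49110893 per numerator library and 8531063 to 42707953 per denominator library. PCR reads without molecular identifiers are not independent molecules, so intervals cover counting error only.

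Alignments were summed by 5′ end. Ends listed in all 8 tables with at least 160 reads over 16 columns, 10245 in all, were tested with edgeR 4.0.16 (robust quasi-likelihood, R 4.3.3) with the pair as a block, which the labels give, 1 numerator effect per day, offsets from the authors' scaling, and Benjamini-Hochberg adjustment at 0.05. The script was tested on simulated data. SE is the log2 ratio divided by the root of F. Alignments were assigned to an arm where they overlapped its RefSeq mature span by at least 12 nt, or by side of the hairpin for MIR148A-5p. Arm sums were compared within tables by exact sign-flip permutation. Alternatives used TMM factors, centring, DESeq2 1.42.0, limma 3.58.1, no read minimum, 20 to 24 nt, arms summed, other blocks, single days and the omission of each table. Folding used RNAfold 2.7.2. All 6 arms are named, and most similar ends were named by the 3 smallest distances, 1 per 100 nt. Members and lists were chosen with earlier results of these data known.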

Additional observations from a re-analysis of the deposited data

Results flagged for a closer look

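Under the authors' scaling the ratio of each of the 6 arms differed between 3 d and both later times, tested as contrasts in edgeR's fit with the 3 d tables shared by both comparisons. With each table centred on its median, MIR152-5p and MIR152-3p alone passed, and the 4 arms of MIR148A and MIR148B did not (edgeR adjusted p of 0.064 to 0.246). From 3 d to 13 d the log2 ratio changed by -3.71 in MIR148A-5p, -3.03 in MIR148A-3p, -3.25 in MIR148B-5p, -2.61 in MIR148B-3p, -7.53 in MIR152-5p and -5.26 in MIR152-3p. From 3 d to 31 d it changed by -3.53, -2.75, -3.53, -2.89, -6.64 and -4.50 in the same order. The values of MIR152-5p rest on at most 31 numerator reads a library.

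Reads on the strand opposite to a hairpin, which enter no comparison, were few. The most were 10 in the numerator library of 31 d replicate 3 and 22 in the denominator library of 31 d replicate 1, both at MIR148A, beside 16912552 and 7284793 reads of 18 to 26 nt on the hairpin's strand.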

How the results depend on the processing

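With TMM factors, centring, DESeq2 and limma, MIR152-3p kept its fall at 13 d and its lower ratio at 13 d and at 31 d than at 3 d. Both arms of MIR148A and of MIR148B lost calls between days. For 13 d against 3 d, calls ended with TMM factors for MIR148B-5p (-2.14) and MIR148B-3p (-1.50), with DESeq2 for MIR148A-3p (-1.50), MIR148B-5p (-1.72) and MIR148B-3p (-1.07), with no replicate block for MIR148B-3p (-2.63) and with a replicate block across days for MIR148B-5p (-3.13). For 31 d against 3 d, both arms of MIR148A and of MIR148B lost theirs with TMM factors (-2.17, -1.39, -2.17 and -1.53, 5p first in each) and with DESeq2 (-1.69, -0.91, -1.69 and -1.04), MIR148A-3p (-2.70) and MIR148B-5p (-3.54) with no replicate block, and MIR148B-5p with a replicate block across days (-3.42). Centring ended both calls of these 4 arms. The scaling decided the sign of MIR148A-3p, which was positive with TMM factors (0.0035 at 13 d, 0.53 at 31 d), with centring (0.34 and 0.69) and with DESeq2 (0.022 and 0.62), and centring put MIR148A-5p at 0.047 at 31 d. At 31 d MIR148B-3p lost its call with TMM factors (-0.62), centring (-0.46), DESeq2 (-0.53), limma (-1.27), no read minimum (-1.27), no replicate block (-1.25) and a replicate block across days (-1.27). MIR152-3p at 31 d lost it with TMM factors (-1.07), centring (-0.91), DESeq2 (-0.99), limma (-1.72), no replicate block (-1.70) and a replicate block across days (-1.72). MIR148B-5p lost its call at 31 d with no replicate block (-2.20). At 3 d MIR148A-5p lost its call with no replicate block (2.41), a replicate block across days (2.69) and each day fitted alone (2.77), MIR148A-3p with DESeq2 (1.53) and no replicate block (2.63), and MIR152-3p with no replicate block (2.78), a replicate block across days (2.72) and each day fitted alone (2.78). For 31 d against 13 d, MIR148B-5p became 0.028 and MIR148B-3p 0.031 with DESeq2, and MIR148B-5p 0.14 with no replicate block. Apart from the scaling, the cause was not tested.

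Called 5′ ends at 3 d, 1412 in all, were 3401 with DESeq2, 2196 with limma, 568 at 20 to 24 nt (of 5555 tested), 587 with no replicate block and 795 with a replicate block across days. With no replicate block they were 1182 at 31 d and 1719 for 31 d against 3 d, where a replicate block across days gave 1554. DESeq2 called 203 for 31 d against 13 d. Deviations from the day mean had correlations of -0.31 to 0.26 between tables of the same number and -0.30 to 0.31 between others. The 2 tables at 3 d deviate as mirror images, and the other days have 3, so these values cannot decide whether numbers pair tables.

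Leaving out 1 table at a time gave 237 to 1444 called ends at 3 d, 906 to 3054 at 13 d, 442 to 2081 at 31 d, 1107 to 2567 for 13 d against 3 d and 1192 to 2914 for 31 d against 3 d. The log2 ratio ranged from 0.81 to 2.43 for MIR148B-3p and from 2.03 to 3.54 for MIR152-3p at 3 d, and from -1.11 to -0.90 and -3.04 to -1.92 at 13 d. At 31 d it ranged from -0.40 to 0.18 for MIR148A-3p, -1.34 to -1.22 for MIR148B-3p and -1.91 to -1.58 for MIR152-3p. For 31 d against 13 d the ranges were -0.051 to 0.45 for MIR148A-5p, -0.0019 to 0.57 for MIR148A-3p, -0.71 to 0.059 for MIR148B-5p, with 0.012 without 31 d replicate 2, and -0.14 to 1.83 for MIR152-5p. Within tables the 5p minus 3p difference ranged from -0.66 to -0.31 in MIR148A, -1.01 to -0.82 in MIR148B and -0.67 to 0.087 in MIR152. MIR148B-3p minus MIR148A-3p ranged from -1.06 to -0.77 and MIR152-3p minus MIR148A-3p from -1.66 to -1.06. In the 6 later tables alone, chosen after seeing the data, the 3 called differences were -1.08, -0.87 and -1.83. There 6 tables allow an exact p of 0.03125 at best, and the adjusted p was 0.0625 for each.

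With 2 tables at 3 d, a call there rests on the spread of all days. Arms with few reads, MIR152-5p above all, are limited by depth.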
